A study of Mus musculus with 10 samples.

Results

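Expression of 36 interferon response and class I antigen processing genes was described across 4 populations of sorted mouse intestinal epithelial cells. The list held 38 genes, given by name as members of these pathways. For each one, the probe set with a single gene symbol and, where there were several, the highest mean over the 10 arrays was taken. Ifi44 was not found, and Igtp was read only by a probe set that carries several gene symbols, so 36 of 38 members were measured, among 18820 genes tested in all. The cells were sorted by 2 reporter alleles. In Lgr5-EGFP-ires-CreERT2 mice the Lgr5 promoter drives a green fluorescent protein together with a tamoxifen-inducible Cre recombinase, and in Ki67-TagRFP mice a red fluorescent protein is joined to the end of the endogenous Ki67 protein. All 4 groups share these alleles, the labels name no treatment, and the groups differ by reporter level: 2 arrays of Lgr5-high Ki67-high cells, 2 of cells with high Lgr5 but low Ki67, 4 of cells with medium Lgr5 and high Ki67, and 2 in which Lgr5 was medium and Ki67 low. A group is called below by its Lgr5 level and then its Ki67 level. Lgr5 marks the stem cells at the crypt base, and Ki67 protein accumulates in cycling cells. The labels give no strain, age or gut region and do not say that replicates came from separate animals, so each p-value is set against a spread between samples that may be no more than technical.

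Interferons bind cell surface receptors whose kinases activate transcription factors. Type I and type III interferons act largely through the interferon-stimulated response element, bound by a complex that includes STAT2 and IRF9, while interferon gamma acts mainly through gamma-activated sites and through IRF1. The induced genes include antiviral effectors, sensors of foreign nucleic acid, guanylate-binding and immunity-related GTPases, and the proteasome subunits, peptide transporters and chaperones that load peptides on MHC class I molecules. Intestinal epithelial cells respond strongly to type III interferon, and a low constant level of interferon-stimulated gene expression is known in the gut epithelium.

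The promoters of the members were read from RefSeq windows of assembly GRCm38.p6, which run from 250 bases before to 50 bases after each gene start. A window was found for 30 of the 38 listed members (34 windows), and none was used for Oas2, Mx1, Tap2, Nlrc5, Usp18, Dhx58, Zbp1 and Parp14. The core of the interferon-stimulated response element, searched as GAAANNGAA on both strands, occurred in the windows of 18 of 30 members (60%), and in 18 of 34 member windows (52.9%) against 2812 of all 32851 windows (8.56%). The gamma-activated site, searched as TTCNNNGAA, which reads the same on both strands, occurred in 7 of 30 members (23.3%), and in 7 of 34 member windows (20.6%) against 2726 of all windows (8.3%). In the Bst2 window the matches of the 2 motifs overlap. Neither motif was found in the windows of Irf7, Irf9, Oasl1, Psmb9, Psmb10, Tap1, Tapbp and Xaf1. Of these, Irf7 too varied widely, over 1.54 across the arrays, against 1.31 for Gbp3, which holds the core. A match describes the letters of the window and does not show that a factor binds there. The following stretches are shown because these genes vary widely from array to array (Oas1a, Ifit3, Gbp3, Ifit1) or stand for a GTPase (Irgm1), the class I light chain (B2m) and the interferon gamma pathway (Irf1); capitals mark the response element core, or in Irf1 the gamma-activated site, on either strand.
Oas1a, chr5:120907511-120907565, minus strand: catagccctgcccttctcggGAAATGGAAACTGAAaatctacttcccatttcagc
Ifit3, chr19:34583354-34583455, plus strand: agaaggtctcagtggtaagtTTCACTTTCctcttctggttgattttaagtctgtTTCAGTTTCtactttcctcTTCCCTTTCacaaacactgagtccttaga
Gbp3, chr3:142559980-142560034, plus strand: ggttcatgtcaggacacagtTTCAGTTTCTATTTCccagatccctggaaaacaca
Ifit1, chr19:34640760-34640833, plus strand: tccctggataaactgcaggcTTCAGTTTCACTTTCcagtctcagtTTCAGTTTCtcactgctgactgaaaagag
Irgm1, chr11:48871416-48871470, minus strand: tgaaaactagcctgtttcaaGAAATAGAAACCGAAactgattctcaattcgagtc
B2m, chr2:122147528-122147576, plus strand: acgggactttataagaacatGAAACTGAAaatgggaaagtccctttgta
Irf1, chr11:53769904-53769952, plus strand: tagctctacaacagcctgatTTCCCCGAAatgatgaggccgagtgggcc
The stretches of Oas1a, Gbp3 and Irgm1 each hold 2 overlapping core matches in a row, those of Ifit3 and Ifit1 hold 3, and that of B2m holds 1. The first match begins 20 bases before the gene start in Oas1a, 44 in Gbp3, 30 in Irgm1, 109 in Ifit1, 155 in Ifit3 and 139 in B2m.

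Values are on a log2 scale, so a difference of 1 is a 2-fold change. Over all 35556 probe sets, array medians lay between 4.23 and 4.40. Over the same probe sets, replicates of a group correlated at r of 0.985 to 0.995, lowest in pairs with Lgr5-medium Ki67-high replicate 4. Lgr5 transcript followed the sort, with group means of 9.38 and 10.22 in the Lgr5-high groups and 7.39 and 8.58 in the Lgr5-medium groups. It also differed with Ki67 at Lgr5 medium, where it was higher in Ki67-low cells by 1.20 (SE 0.14, adjusted p = 0.000986, limma), so those groups differ in Lgr5 level too. At Lgr5 high, Lgr5 transcript was likewise higher in Ki67-low cells, by 0.84 (SE 0.16), without passing the test (adjusted p = 0.598, limma). The Lgr5-high groups therefore cannot be taken as matched for Lgr5 level. Mki67 transcript lay between 9.79 and 10.18 in all 4 groups, and its difference between Ki67-low and Ki67-high cells passed the test at neither Lgr5 level (adjusted p = 1 at Lgr5 high and 0.249 at Lgr5 medium, limma). Of the 36 members, 28 had a mean above the median of all genes, 5.06, and 0 were among the dimmest 30% of genes, so a filter on dim genes removes no member, although it changes how many tests are adjusted for. In sorted populations such as these, fewer cells of a type and less RNA per cell cannot be told apart.

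The members varied more between replicate arrays than most genes did. Their median residual standard deviation within groups was 0.24, against 0.13 over all genes, and 16 of 36 members lay above 0.25, the 90th percentile of all genes. The spread differed by role: the median was 0.34 in the 13 antiviral effectors, with 8 above that percentile, and 0.15 in the 8 class I genes, with 1 above it. Within the group of 4 arrays, Lgr5-medium Ki67-high, the range of a member over its replicates exceeded the largest gap between any pair of the 4 group means in 27 of 36 members, against 64.0% of all genes.

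**Figure D1:**
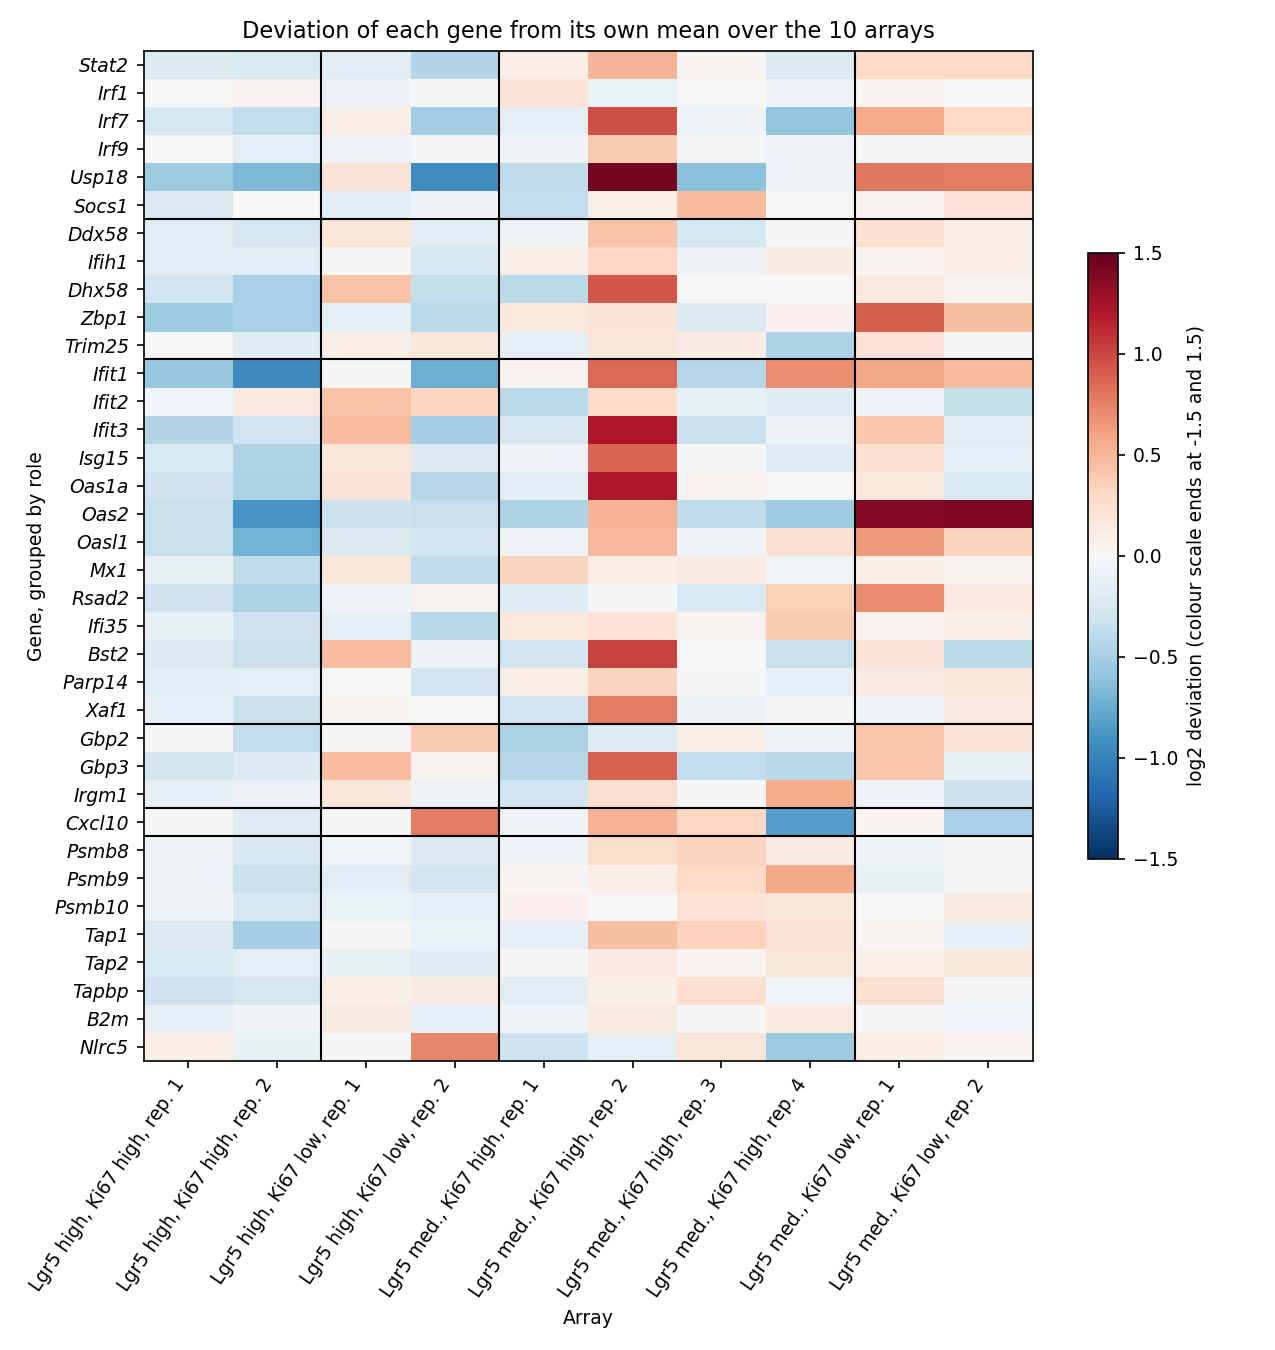
Each row is a member, grouped by role, and each column an array; colour gives the log2 deviation from the gene's own mean over the 10 arrays, on a scale that ends at -1.5 and 1.5. The column of Lgr5-medium Ki67-high replicate 2 is red across most antiviral effectors and in the sensors Dhx58 and Ddx58. The other sensors are paler there, as are the class I rows at the bottom except Tap1.

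One array carried much of this spread. Lgr5-medium Ki67-high replicate 2, singled out after its values were seen, held the highest value of the 10 arrays for 16 of 36 members, against 7.89% of all genes, and the highest of its group for 22 of 36 (61.1%), against 18.5% of all genes. Over the members, its median gap to the mean of the other 3 arrays of the group was 0.34, against 0.00 over all genes. The gap followed the role of the genes: it was above all 3 other arrays in 10 of 13 antiviral effectors (median gap 0.74), 5 of 5 sensors (0.34) and 4 of 6 transcription factors and feedback regulators (0.48), but in 1 of 3 GTPases (0.18) and 1 of 8 class I genes (0.088). The same array was highest of its group in 30 of 46 further interferon-stimulated genes that are no members (median gap 0.34). The 16 measured members with a response element core in their promoter window had a median gap of 0.54, and the 12 measured members with a window but no core match had 0.22, which is a description over genes that share the same array. These sets also differ in role: the class I genes Psmb8, Psmb9, Psmb10, Tap1 and Tapbp lack a core match, and only B2m has one. Motif and role were not separated.

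Replicates also differed in the groups of 2 arrays. In Lgr5-high Ki67-low, replicate 1 was above replicate 2 in 27 of 36 members, against 46.3% of all genes: in 12 of 13 antiviral effectors (median gap 0.30), 4 of 5 sensors, 3 of 6 transcription factors and feedback regulators, 2 of 3 GTPases and 6 of 8 class I genes, but not in Cxcl10. Replicate 1 was the higher one for 24 of 36 members in Lgr5-high Ki67-high (52.5% of all genes) and for 25 of 36 in Lgr5-medium Ki67-low (51.8% of all genes). On the mean deviation over all 36 members, replicates 1 and 2 stood at -0.20 and -0.31 in Lgr5-high Ki67-high and at 0.057 and -0.15 in Lgr5-high Ki67-low. In Lgr5-medium Ki67-high the 4 arrays gave -0.12, 0.44, -0.011 and -0.030, and in Lgr5-medium Ki67-low both were above 0, at 0.24 and 0.087. Both Lgr5-high Ki67-high arrays were the lowest of the 10. The group of 4 spanned a wider range than the other 3 groups, but these hold only 2 arrays each, so the ranges are not on an equal footing. Without replicate 2 the group of 4 ran from -0.12 to -0.011, a narrower range than that of Lgr5-high Ki67-low. On Lgr5-medium Ki67-high replicate 2 the mean deviation over 18 markers of T and natural killer cells was -0.38, against -0.030, -0.48 and 0.27 on the other 3 arrays of the group. Over 11 myeloid markers it was -0.046 there, against 0.014, -0.035 and -0.15, and over 6 markers of B and plasma cells 0.083, against -0.18, 0.049 and 0.14. The part of other cells in the values of this array was not tested.

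**Figure D2:**
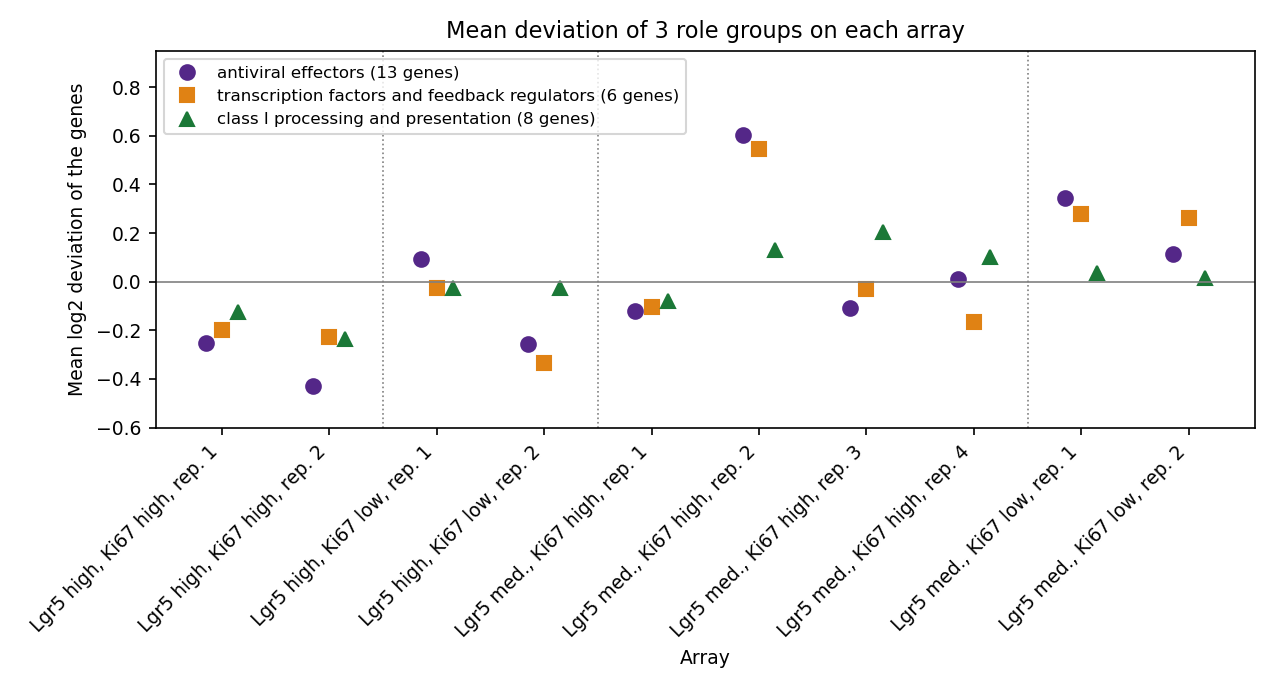
Mean log2 deviation of the antiviral effectors (13 genes), the transcription factors and feedback regulators (6 genes) and the class I genes (8 genes) on each of the 10 arrays, with dotted lines between groups. Effectors reach 0.60 in Lgr5-medium Ki67-high replicate 2, where the class I genes stand at 0.13; the class I genes are highest, 0.21, in replicate 3.

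The transcription factors and feedback regulators set how strongly and for how long a cell responds. Usp18, which removes ISG15 from proteins and restrains signalling at the type I receptor, had the widest range of all members over the 10 arrays, 2.36. Its values were 5.07 and 4.94 in Lgr5-high Ki67-high, 5.80 and 4.68 in Lgr5-high Ki67-low, 5.22, 7.04, 4.99 and 5.53 in Lgr5-medium Ki67-high, and 6.39 and 6.39 in Lgr5-medium Ki67-low. Both Lgr5-medium Ki67-low arrays lay above every Lgr5-high array, but the Lgr5-medium Ki67-high group ran from near the Lgr5-high values to above them all. Irf7, the amplifier of type I interferon production, gave 7.06 and 6.93, then 7.40 and 6.78, then 7.15, 8.25, 7.22 and 6.71, then 7.85 and 7.59 in the same order of groups. Its highest and its lowest value thus came from replicates of 1 group. Stat2, a subunit of the factor that binds the response element, gave 6.96 and 6.94, then 7.01 and 6.72, then 7.27, 7.67, 7.19 and 6.95, then 7.46 and 7.46, and the Lgr5-medium Ki67-low arrays lay above all 4 Lgr5-high arrays. Irf9, the DNA-binding subunit of the same factor, stayed between 7.83 and 7.98 on 9 arrays and reached 8.37 on Lgr5-medium Ki67-high replicate 2. Irf1 and Socs1 were not highest on that replicate. Irf1, the factor of the interferon gamma branch, lay between 9.64 and 9.94 on all arrays and had its lowest value there. Socs1, an inhibitor of the receptor kinases, ranged from 5.11 on replicate 1 to 5.96 on replicate 3 of Lgr5-medium Ki67-high.

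Among the sensors, Zbp1 ordered the groups most clearly. Zbp1, which detects nucleic acids in the Z form and can trigger cell death, gave 5.77 and 5.80 in Lgr5-high Ki67-high, 6.14 and 5.89 in Lgr5-high Ki67-low, 6.46, 6.49, 6.09 and 6.35 in Lgr5-medium Ki67-high, and 7.20 and 6.75 in Lgr5-medium Ki67-low. The Lgr5-medium Ki67-low arrays lay above all others, the Lgr5-high Ki67-high arrays below all others, and the groups between them overlapped. Dhx58, a regulator of RNA sensing, was at 6.16 and 5.95, at 6.87 and 6.08, at 6.04, 7.37, 6.44 and 6.44, and at 6.60 and 6.48, so that its group means differed by less than the spread within Lgr5-medium Ki67-high. The RNA helicases Ddx58 and Ifih1, which detect viral RNA in the cytoplasm, ranged over 0.70 and 0.56, and Trim25, a ubiquitin ligase that assists Ddx58, over 0.68; Ddx58 and Ifih1 peaked on Lgr5-medium Ki67-high replicate 2.

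Oas2 was the member with the largest difference between groups. It encodes an oligoadenylate synthetase, which on binding double-stranded RNA makes the messenger that activates RNase L. Its values were 4.58 and 4.04 in Lgr5-high Ki67-high, 4.60 and 4.58 in Lgr5-high Ki67-low, 4.45, 5.45, 4.55 and 4.39 in Lgr5-medium Ki67-high, and 6.30 and 6.33 in Lgr5-medium Ki67-low. The Lgr5-medium Ki67-low arrays lay above all 8 others, with Lgr5-medium Ki67-high replicate 2 the nearest. Oas1a, another synthetase of the same pathway, did not share this order: it gave 6.98 and 6.82, then 7.48 and 6.87, then 7.12, 8.50, 7.33 and 7.29, then 7.45 and 7.06. Its Lgr5-medium Ki67-low arrays lay within the range of the other groups, and only replicate 2 of Lgr5-medium Ki67-high stood apart. Oasl1, a relative that represses translation of Irf7, gave 6.33 and 5.96, then 6.46 and 6.38, then 6.61, 7.17, 6.63 and 6.90, then 7.32 and 7.0, with every Lgr5-medium array above every Lgr5-high array.

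**Figure D3:**
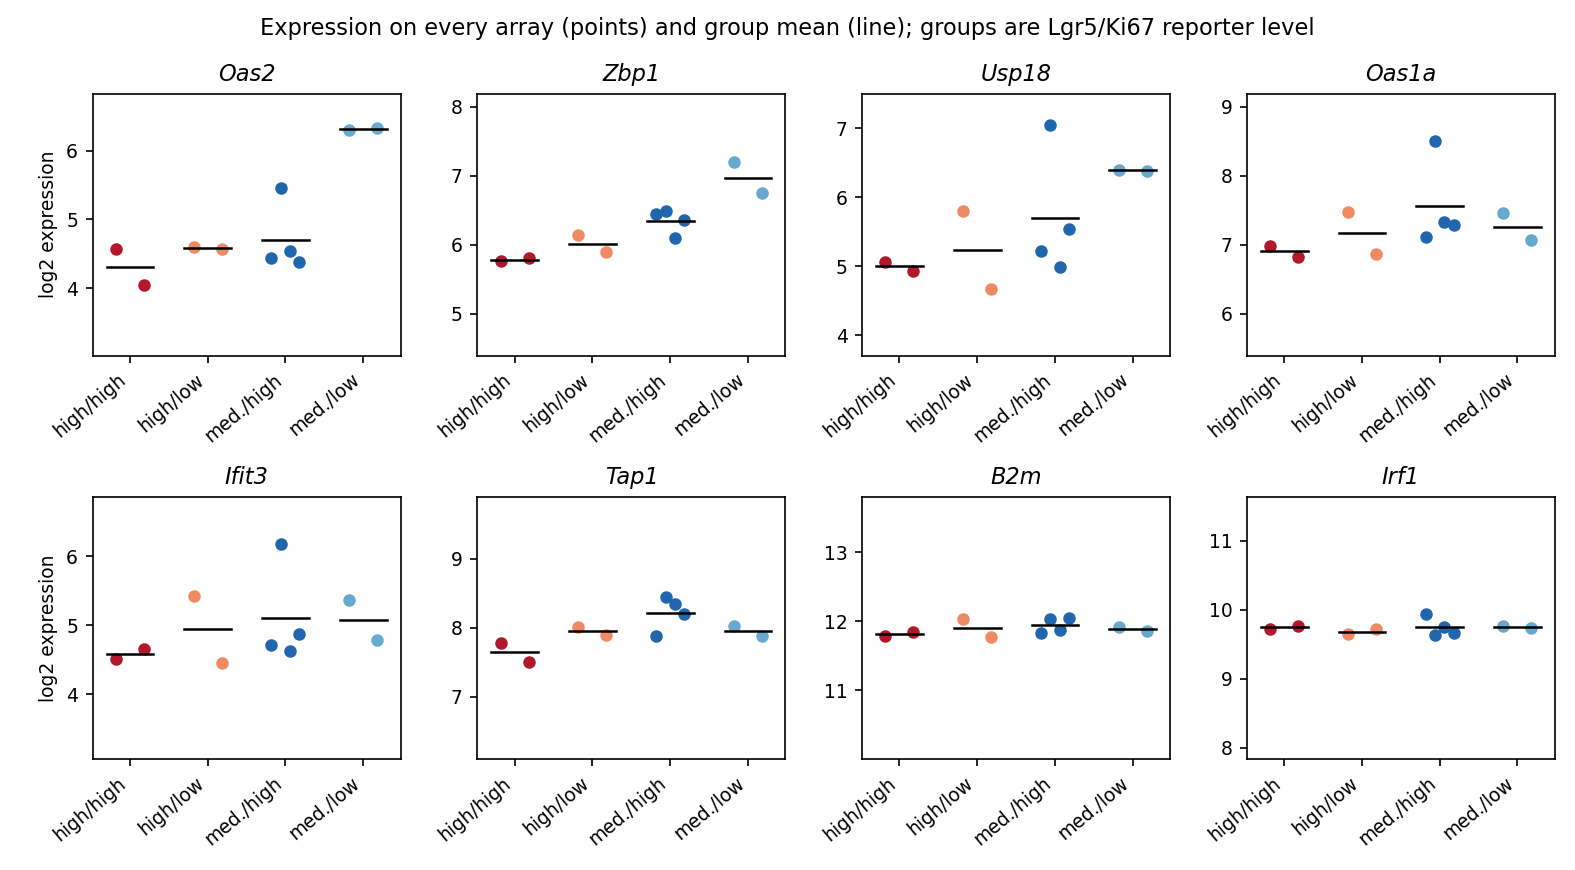
Log2 expression of 8 members on every array (points), with the group mean as a line; the groups on the horizontal axis are Lgr5 and Ki67 reporter level. Oas2 and Zbp1 are highest in both Lgr5-medium Ki67-low arrays, Usp18, Oas1a and Ifit3 have 1 high array in Lgr5-medium Ki67-high, and Tap1, B2m and Irf1 spread less.

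The IFIT proteins, which bind viral RNA, also differed from one another. Ifit1 gave 4.81 and 4.45, then 5.41 and 4.65, then 5.44, 6.24, 4.95 and 6.09, then 5.96 and 5.86, so that every Lgr5-medium Ki67-high array was above both Lgr5-high Ki67-high arrays. Ifit3 gave 4.51 and 4.66, then 5.42 and 4.46, then 4.72, 6.17, 4.63 and 4.87, then 5.36 and 4.78, and among its groups only Lgr5-high Ki67-high and Lgr5-medium Ki67-low did not overlap. Mice carry a near-identical copy of Ifit3 and close relatives of Oas1a, so these probe sets may read more than 1 gene. Ifit2 ran the other way between Lgr5 levels in Ki67-low cells, with 4.85 and 4.74 in Lgr5-high Ki67-low against 4.36 and 4.06 in Lgr5-medium Ki67-low. Bst2, or tetherin, which holds virus particles at the cell surface, had its highest value, 7.56, on Lgr5-medium Ki67-high replicate 2 and 6.15 to 7.01 on the other 9 arrays. Ifi35, an interferon-induced leucine zipper protein, lay between 7.84 and 8.16 on the 4 Lgr5-high arrays and between 8.32 and 8.66 on the 6 Lgr5-medium arrays. Isg15, the ubiquitin-like modifier, was dim, from 2.91 to 4.23, and the identity of its probe set is uncertain: of the 10 nearest named probe sets by number, 1 lay on the chromosome of Isg15, against 7 to 10 of 10 for the other 35 members. The other effectors, Mx1, Rsad2, Parp14 and Xaf1, ranged over 0.62 to 1.19 across the arrays.

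The 3 GTPases had higher values in Ki67-low than in Ki67-high cells at Lgr5 high, without overlap and without passing the test. Of all genes, 38.4% did not overlap there in either direction. The nearest arrays were close in Gbp2 (4.36 against 4.39) and Irgm1 (8.18 against 8.19). At Lgr5 medium the GTPases did not share a direction. Gbp3, a guanylate-binding protein that attacks the vacuoles of intracellular pathogens, gave 4.31 and 4.38, then 5.04 and 4.64, then 4.15, 5.47, 4.21 and 4.16, then 5.0 and 4.47. Gbp2 ranged from 3.90 to 4.79, and Irgm1, an immunity-related GTPase, from 7.94 to 8.82, with its highest value on Lgr5-medium Ki67-high replicate 4. Cxcl10, which attracts T cells through CXCR3, was highest on Lgr5-high Ki67-low replicate 2 at 6.09 and lowest on Lgr5-medium Ki67-high replicate 4 at 4.49.

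The class I genes were steadier. Tap1, a subunit of the transporter that carries peptides into the endoplasmic reticulum, gave 7.78 and 7.50 in Lgr5-high Ki67-high, 8.01 and 7.89 in Lgr5-high Ki67-low, 7.88, 8.45, 8.34 and 8.19 in Lgr5-medium Ki67-high, and 8.02 and 7.87 in Lgr5-medium Ki67-low. The Lgr5-high Ki67-high arrays were below all 8 others. Psmb9, an inducible proteasome subunit, gave 9.32 and 9.07, then 9.22 and 9.11, then 9.43, 9.50, 9.70 and 9.97, then 9.29 and 9.39, with the 4 Lgr5-medium Ki67-high arrays above the other 6. Psmb8, of the same immunoproteasome, behaved alike without a full separation, at 8.58 to 8.98 in Lgr5-medium Ki67-high and 8.41 to 8.63 elsewhere. Psmb10 ran from 9.95 to 10.43, and Tap2, the partner of Tap1, from 6.36 to 6.47 in the Lgr5-high groups and from 6.60 to 6.77 in the Lgr5-medium groups. Tapbp, or tapasin, which holds class I molecules at the transporter, was at 8.97 and 9.03 in Lgr5-high Ki67-high and between 9.11 and 9.53 on the other arrays. B2m, the light chain of every class I molecule, had the smallest range of all members, 0.27, from 11.78 to 12.05. Nlrc5, the transactivator of class I genes, had 19 probe sets, whose means ran from 3.99 to 6.30; the one used was highest, 7.02, on Lgr5-high Ki67-low replicate 2, and 17 of the 19 had a higher mean in Ki67-low than in Ki67-high cells at Lgr5 high, and 17 of 19 at Lgr5 medium.

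Across the groups, Lgr5-high Ki67-high had the lowest mean of the 4 for 27 of 36 members, against 17.9% of all genes. The highest mean was in Lgr5-medium Ki67-high for 15 members (27.1% of all genes), in Lgr5-medium Ki67-low for 13 (20.5%), in Lgr5-high Ki67-low for 7 (28.0%) and in Lgr5-high Ki67-high for 1 (24.4%). The order of both Lgr5-medium groups rested on single arrays: without Lgr5-medium Ki67-high replicate 2 the highest mean was in Lgr5-medium Ki67-high for 9 members and in Lgr5-medium Ki67-low for 20. The count was also larger in Lgr5-medium Ki67-low when replicate 2 of Lgr5-high Ki67-low (15 against 10) or replicate 1 (14 against 13) or 2 (19 against 14) of Lgr5-medium Ki67-low was left out. Lgr5-high Ki67-high was lowest for 19 to 30 members with an array left out, and for 19 without replicate 1 of Lgr5-high Ki67-low.

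Among Lgr5-high cells, the comparison of Ki67-low with Ki67-high cells asks whether these genes differ with the Ki67 reporter. A low reporter is read as slower cycling, which was not measured. Mki67 transcript was at 10.08 in Ki67-low and 10.18 in Ki67-high cells. No single member passed the test, while 31 of 36 lay above 0, that is higher in Ki67-low cells, against 48.0% of all genes. The median difference was 0.23, against -0.01 over all genes. The 3 highest were Gbp3 (0.49, SE 0.39), Cxcl10 (0.48, SE 0.40) and Bst2 (0.46, SE 0.40), and the 3 lowest Stat2 (-0.08, SE 0.19), Irf1 (-0.07, SE 0.11) and Ifi35 (-0.06, SE 0.14), all with an adjusted p of 1. Limma called 0 of 36 members, with 1 gene of 18820 called in all (0.00531%); 1 member reached an unadjusted p under 0.05, Tapbp at 0.39 (SE 0.14, unadjusted p = 0.0207), against 4.53% of all genes. The groups did not overlap in 15 of 36 members, against 38.4% of all genes. The count was also 0 in every alternative run. The median rested on 1 array: leaving out replicate 1 of Lgr5-high Ki67-low gave 0.03, with 23 of 36 members above 0, and leaving out Lgr5-high Ki67-high replicate 2 gave 0.15.

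The same comparison at the medium Lgr5 level gave 1 call. Oas2 was higher in Ki67-low cells by 1.61 (SE 0.27, adjusted p = 0.00886, limma with Benjamini-Hochberg adjustment), with both Ki67-low arrays above all 4 Ki67-high arrays. Of all genes, 3.58% were called here in either direction and 2.65% higher. The Oas2 call was lost with the replicate number fitted as a block. Zbp1 missed the threshold, at 0.62 (SE 0.15, adjusted p = 0.0504), and so did Usp18, at 0.69 (SE 0.50, adjusted p = 0.572). At the other end stood Irgm1 (-0.32, SE 0.20), Psmb9 (-0.31, SE 0.15) and Oas1a (-0.30, SE 0.34), with adjusted p between 0.346 and 0.753. The members were split about evenly: 17 of 36 lay above 0, against 44.6% of all genes, with a median of -0.01 beside -0.02 over all genes, 4 reached an unadjusted p under 0.05 (15.7% of all genes), and the groups did not overlap in 4 (24.5% of all genes). Leaving out Lgr5-medium Ki67-high replicate 2 changed this to 26 of 36 above 0 and a median of 0.12, and leaving out Lgr5-medium Ki67-low replicate 2 to 22 of 36 and 0.05. Oas2 lost its call without either Lgr5-medium Ki67-low array (adjusted p = 0.0922 without replicate 1 and 0.0578 without replicate 2), while its difference stayed between 1.37 and 1.85 in every alternative run.

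Among cycling cells, the members were mostly lower at the high Lgr5 level. Of 36 members, 33 (91.7%) lay below 0 in Lgr5-high minus Lgr5-medium cells, against 46.9% of all genes, with a median of -0.32 beside 0.01. The 3 lowest were Ifit1 (-1.05, SE 0.33, adjusted p = 0.174), Usp18 (-0.70, SE 0.50, adjusted p = 0.556) and Oasl1 (-0.68, SE 0.17, adjusted p = 0.0985), and the 3 highest Nlrc5 (0.19, SE 0.22), Ifit2 (0.16, SE 0.17) and Irf1, at 0.00 (SE 0.10), whose sign turned with centred arrays. Limma called 0 of 36 (0.935% of all genes), although 12 (33.3%) reached an unadjusted p under 0.05, against 15.2% of all genes, and the groups did not overlap in 16 of 36, against 27.2%. The class I genes made up 6 of those 12: Tap1 at -0.57 (SE 0.15, adjusted p = 0.11), Psmb9, Psmb8, Tapbp, Tap2 and Psmb10, the latter 5 between -0.45 and -0.28. Of the 8 class I genes, 7 lay below 0, with a median of -0.30, as did 12 of 13 antiviral effectors, with a median of -0.40. Without Lgr5-medium Ki67-high replicate 2 the class I median was -0.29, that of the effectors -0.26 and that of all members -0.19, with 31 of 36 below 0. With arrays weighted by their quality, 5 members were called lower (Tap1, Oasl1, Zbp1, Ifi35 and Tap2, adjusted p between 0.0266 and 0.049, limma). Calls over all 18820 genes rose as well under these weights, from 176 to 1135. The weight was highest, 1.62, for Lgr5-medium Ki67-high replicate 2 and lowest, 0.29, for replicate 4 of that group. Without Lgr5-medium Ki67-high replicate 1, Tap1 alone was called (-0.69, adjusted p = 0.0469, limma).

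In Ki67-low cells, 2 members were lower at the high than at the medium Lgr5 level. Oas2 fell by 1.72 (SE 0.31, adjusted p = 0.0164, limma) and Zbp1 by 0.96 (SE 0.17, adjusted p = 0.0161), both without overlap of the groups. Of all genes, 2.84% were called in either direction and 2.18% lower. Usp18 was at -1.15 (SE 0.57, adjusted p = 0.409). At the other end, Cxcl10 (0.60, SE 0.40), Ifit2 (0.59, SE 0.19) and Bst2 (0.29, SE 0.40) did not pass, with adjusted p between 0.17 and 0.827. Of the 36 members, 26 (72.2%) lay below 0, against 42.7% of all genes, with a median of -0.12 beside 0.03; 8 (22.2%) reached an unadjusted p under 0.05, against 14.6%, and the groups did not overlap in 17 (47.2%), against 47.1% of all genes. Leaving out replicate 2 of Lgr5-high Ki67-low moved the median to -0.04 with 23 members below 0, and leaving out replicate 1 to -0.24 with 27. The Oas2 call was lost without any 1 of the 4 arrays compared (adjusted p from 0.0773 to 0.125), and the Zbp1 call when replicate 2 of Lgr5-high Ki67-low (0.159) or replicate 1 of Lgr5-medium Ki67-low (0.113) was left out. Both calls were also lost when every probe set of the table was tested (adjusted p = 0.0626 and 0.0576), and Zbp1 when only these groups were fitted (0.0715).

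An interaction term compared the Ki67 difference of Lgr5-high cells with that of Lgr5-medium cells, by subtracting the second from the first. Of the 36 members, 25 lay above 0, against 54.5% of all genes, among them 8 of 8 class I genes. Limma called 0 of 36 members, against 1.04% of all genes, and 2 reached an unadjusted p under 0.05, Oas2 and Tap1, against 8.08%. Oas2 was lowest at -1.33 (SE 0.41, adjusted p = 0.314), before Usp18 (-0.45, SE 0.76) and Zbp1 (-0.39, SE 0.23). Cxcl10 (0.70, SE 0.53), Bst2 (0.65, SE 0.53) and Tap1 (0.58, SE 0.23, adjusted p = 0.535) were highest. Without Lgr5-medium Ki67-high replicate 2, the Oas2 interaction was -1.57 and passed (adjusted p = 0.0112). The 4 comparisons share groups pairwise, so their values for a gene are not independent of each other.

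**Figure D4:**
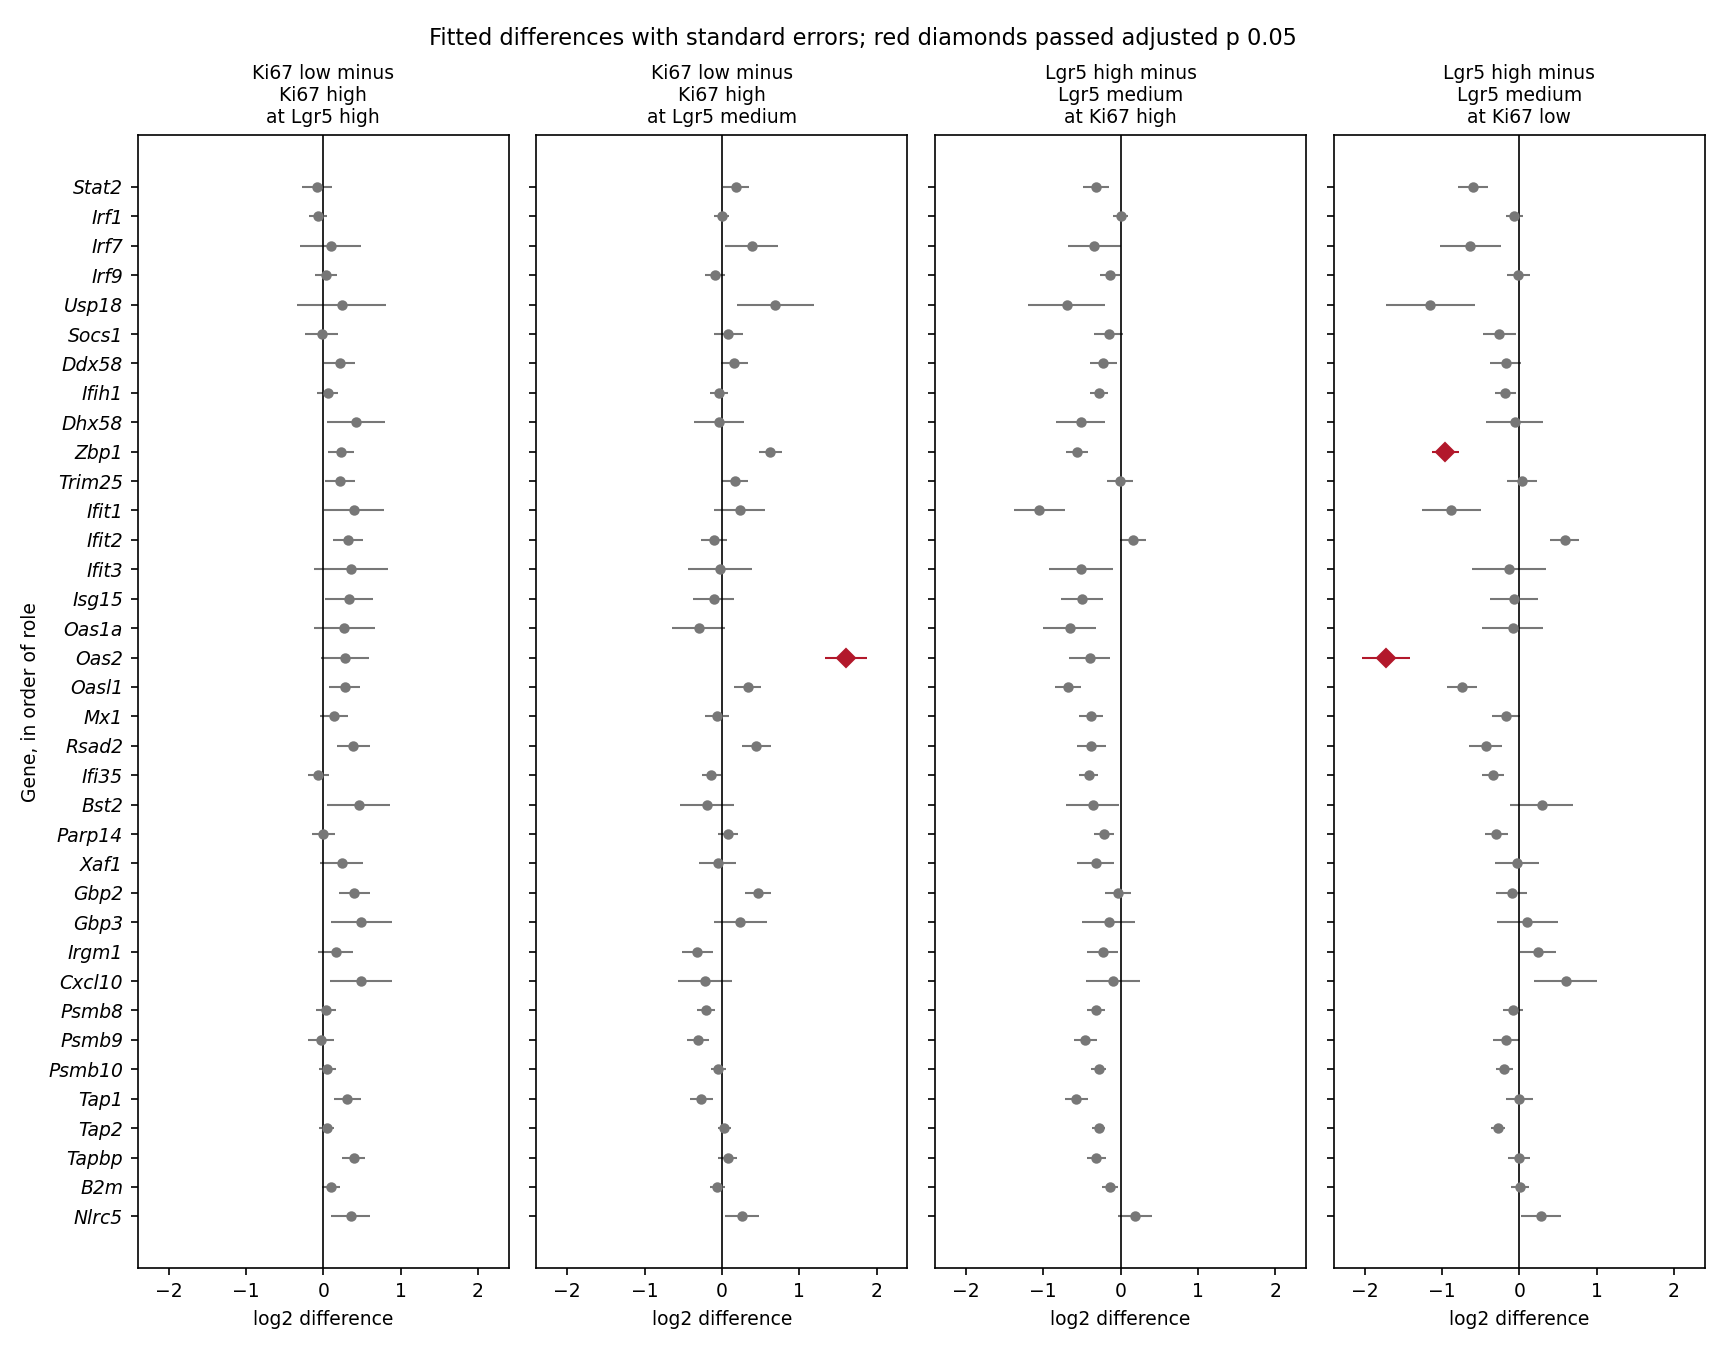
Fitted log2 differences of the 36 members with their standard errors in the 4 comparisons of a pair of groups, in order of role; red diamonds mark an adjusted p under 0.05. Oas2 is called in the second panel (1.61) and the fourth (-1.72), Zbp1 in the fourth (-0.96), and most points in the third panel lie left of 0.

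Markers of cell types beside the stem cells also differed between the sort groups. Those of tuft, enteroendocrine and goblet cells, summed, were highest in Lgr5-medium Ki67-low, as Oas2 and Zbp1 were. In Lgr5-medium Ki67-low against Lgr5-medium Ki67-high cells, 11 of 12 tuft cell markers, 11 of 12 enteroendocrine markers and 6 of 7 goblet markers were called higher. The summed log2 level of the tuft markers was 83.8 to 91.4 in Lgr5-medium Ki67-low, against 52.3 to 63.6 in Lgr5-medium Ki67-high, 60.2 to 60.9 in Lgr5-high Ki67-high and 57.9 to 61.0 in Lgr5-high Ki67-low. For the enteroendocrine markers it was 98.3 to 100 in Lgr5-medium Ki67-low and 67.1 to 79.2 in the other groups, and for the goblet markers 81.1 to 82.8 and 71.8 to 75.3. Dclk1, a kinase that marks tuft cells, was at 8.23 and 8.84 in Lgr5-medium Ki67-low and between 4.79 and 5.77 elsewhere. Each absorptive enterocyte marker was also higher on both Lgr5-medium Ki67-low arrays than on every Lgr5-high array. Alpi, for example, was at 10.81 and 10.90 against 9.84 to 10.25. Not all of them were separated from Lgr5-medium Ki67-high. Mttp was at 10.77 on replicate 2 of that group and at 10.57 on Lgr5-medium Ki67-low replicate 1. The part of these cell types in the Oas2 and Zbp1 results was not tested. The 18 measured T and natural killer cell markers summed to 75.4 and 83.9 in Lgr5-medium Ki67-low, against 66.6 to 80.0 in Lgr5-medium Ki67-high, and 0 of 18 were called in any of these comparisons. On a log2 scale without background values, no marker can be said to be at 0. In Lgr5-high against Lgr5-medium cycling cells, 5 of 8 stem cell markers were called higher, their sums being 70.9 to 71.2 against 62.9 to 64.1, and the part of cell make-up in the lower member values there was not tested.

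Other genes of the pathway were read from lists outside the members. Of the receptors and kinases, all 9 were measured and 0 were called in any comparison; Ifngr1, a subunit of the interferon gamma receptor, came nearest, at -0.31 (SE 0.083, adjusted p = 0.112) in Lgr5-high against Lgr5-medium cycling cells. Of the interferons themselves, 6 of 9 were measured, and of the other transcription factors and sensing adaptors 10 of 15, with 0 called in each. Ifna4, Ifnb1, Ifne, Ifnk and Ifng were dim, so the lack of calls says little about them. On Lgr5-high Ki67-low replicate 1, for example, they lay between 2.36 and 3.05. The dimmest 30% of genes had means up to 3.26. Ifnl2, the other interferon measured, was not dim. It was at 5.66 on Lgr5-high Ki67-low replicate 1, where the median of the genes tested was 5.01. Of 56 further interferon-stimulated genes, 46 were measured. In Ki67-low cells at Lgr5 medium 2 of these 46 were called higher, a comparison in which 2.65% of all genes were called higher. Isg20, an antiviral exonuclease, was at 5.30, 5.33, 5.35 and 5.25 in Lgr5-medium Ki67-high and at 6.39 and 5.97 in Lgr5-medium Ki67-low, a difference of 0.87 (SE 0.11, adjusted p = 0.00174). Samhd1, which depletes nucleotides needed by viruses, differed by 0.40 (SE 0.095, adjusted p = 0.049), a call that most alternatives removed. Isg20 was also lower in Lgr5-high than in Lgr5-medium Ki67-low cells, by -0.57 (SE 0.13, adjusted p = 0.0452). Like Oas2 and Zbp1, it was highest on both Lgr5-medium Ki67-low arrays.

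Of 22 further class I genes, 19 were measured. Cd1d1, which presents lipids to natural killer T cells, was called higher in Ki67-low cells at Lgr5 medium, by 1.18 (SE 0.21, adjusted p = 0.011, limma), from 3.06, 2.42, 2.46 and 2.44 to 3.62 and 3.92. Of all genes, 2.65% were called higher there. Cd1d1 was dim: its Ki67-high values lay below 3.26, the mean that bounds the dimmest 30% of genes. H2-Q2, a class I heavy chain whose close relatives may share its probes, was lower in Lgr5-high than in Lgr5-medium Ki67-low cells, by -0.58 (SE 0.12, adjusted p = 0.0276). The 3 constitutive proteasome subunits that the inducible ones replace, Psmb5, Psmb6 and Psmb7, gave 0 calls, and in Lgr5-high against Lgr5-medium cycling cells they too lay below 0, with a median of -0.25 beside the class I median of -0.30. Of 11 class II genes, 9 were measured and 0 called; Cd74, the class II invariant chain, came nearest in Lgr5-high cells, with a Ki67 difference of 0.79 (SE 0.18, adjusted p = 0.817).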

How the data were processed

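The deposited value table gives 1 log2 value per probe set for 35556 probe sets on 10 Affymetrix Mouse Gene ST 1.1 arrays; per the labels, total RNA of sorted cells was labelled with biotin, 1 sample per array. MAS5 and GCOS are named in the submitters' processing notes without a role; the log base, background correction, probe summary and normalization were not stated in any source used here. The values (1.16 to 13.8) were read as log2 and used as deposited; another base would change the unit of differences, not their direction. Without background values, precision is limited by the number of arrays.

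Genes were named through GEO's platform annotation: 21218 probe sets had 1 symbol, 1881 several and 12457 none; 21185 matched RefSeq (GRCm38.p6) by Entrez number and 0 symbols changed. Taking the probe set with the highest mean (1386 genes had several) left 18820 genes. Limma 3.58.1 in R 4.3.3 was fitted to all 10 arrays with 1 mean per group (6 residual degrees of freedom), with eBayes and Benjamini-Hochberg adjustment over all genes at 0.05 and no minimum fold; the script was tested on simulated data. Named members were those called and the 3 highest and 3 lowest differences of each comparison. Of other lists, up to 4 genes with the smallest p were named. Dclk1, Alpi, Mttp, Ifnl2 and any further member given with array values were picked with their values in view. The members and lists were chosen with earlier results of these data known. Alternatives were array centring, quantile normalization, a filter on dim genes, fitting only the groups compared, array weights, the replicate number as a block, the mean of a gene's probe sets, every row of the table, trend and robust variance, and leaving out each array.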

Additional observations from a re-analysis of the deposited data

Results flagged for a closer look

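Within the Lgr5-medium Ki67-high group, the only group of 4 arrays and the only one tested in this way, replicate 2 stood apart as the highest value in 6 of 36 members (16.7%). Over all genes, 6.55% had an array of this group that stood apart, counting any of the 4 arrays and either direction. The gap to the nearest array, divided by the range of the group, was above 0.829 in each, a level that chance alone passes in about 1 group in 20. Irf9 was at 8.37 there, with 7.96 the next highest. Ifit3 was at 6.17 against 4.87, and Oas1a at 8.50 against 7.33. Oas2 was at 5.45 against 4.55, Gbp3 at 5.47 against 4.21, and Isg15, whose probe set is of uncertain identity, at 4.23 against 3.34. Of 7 mean scores tested, that of the nucleic acid sensors also stood apart, at 0.41 on replicate 2. These flags share 1 array and are not independent of each other. No cause was tested.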

How the results depend on the processing

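No member called by limma changed direction under any alternative, and the count of members called moved as follows. For Ki67 low minus Ki67 high at Lgr5 medium, 1 member was called as reported, 2 without the dimmest 30% of genes and 2 with array weights (Zbp1 added), and 0 to 1 with an array left out. For Lgr5 high minus Lgr5 medium at Ki67 high, the count was 0 as reported, 5 with array weights and 0 to 1 with an array left out. For the same difference at Ki67 low, it was 2 as reported, 1 with only the groups compared, 0 with every row of the table, and 0 to 2 with an array left out. For the interaction it was 0 to 1, and at Lgr5 high 0 to 0. With an array left out, the median over members ran from 0.030 to 0.29 for Ki67 at Lgr5 high, from -0.025 to 0.12 for Ki67 at Lgr5 medium, from -0.39 to -0.19 for Lgr5 at Ki67 high, from -0.24 to -0.041 for Lgr5 at Ki67 low, and from 0.025 to 0.23 for the interaction.

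Deviations of same-numbered arrays correlated at r between -0.30 and 0.013, so equal numbers gave no sign of a pairing. In a group of 2 arrays the deviations mirror each other, so crossed numbers turn the sign of r. The check therefore cannot show that the samples were unpaired. With a replicate block, 0 members were called for Ki67 at Lgr5 medium (Oas2 at 1.37, adjusted p = 0.0892), and 2 for Lgr5 at Ki67 low; with crossed numbers, chosen after seeing the data, 2 were called there. Signs that turned belong to differences that did not pass. With an array left out, Ifi35 for Ki67 at Lgr5 high ran from -0.21 to 0.087 (0.039 without Lgr5-high Ki67-high replicate 1) and Stat2 from -0.23 to 0.062, both highest with Lgr5-high Ki67-low replicate 2 left out. Oas1a for Ki67 at Lgr5 medium ran from -0.49 to 0.013, the latter without Lgr5-medium Ki67-high replicate 2. Irf1 between Lgr5 levels at Ki67 high was -0.074 with centred arrays and -0.042 with the replicate block, and ran from -0.036 to 0.067 with an array left out; it was below 0 without replicate 2 of Lgr5-high Ki67-high, or replicate 2, 3 or 4 of Lgr5-medium Ki67-high. Bst2 for Lgr5 at Ki67 low ran from -0.017 (Lgr5-medium Ki67-low replicate 2 left out) to 0.59, and the Usp18 interaction from -1.02 to 0.11 (Lgr5-high Ki67-low replicate 2 left out). Centring shifted the median of all genes by -0.13 for Ki67 at Lgr5 medium, where the member median became -0.14 with 13 of 36 above 0, and by 0.14 for the interaction. Of all 18820 genes, 674 were called for Ki67 at Lgr5 medium, against 1184 with centred arrays and 352 with the block. For Lgr5 at Ki67 high 176 were called, against 1135 with array weights and 6 with the block. For Lgr5 at Ki67 low 534 were called, against 502 with the block and 881 with crossed numbers. The cause of these changes was not tested.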
